A study of Mus musculus with 4 samples.

Results

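The genes described here are MYC, 2 factors of its dimerisation network, and the proteins that build ribosomes in the nucleolus, chosen by gene symbol from a fixed list of 38 names that holds no ribosomal protein. The deposited table carried 37 of them among its 24312 genes, and Noc2l was not analysed here. All 37 were abundant enough to be tested, with 549 to 29031 estimated fragments per gene and library. The cells were P14 CD8 T cells on a C57BL/6 background, which carry a transgenic receptor for the viral peptide gp33. They were given gp33 at 100 ng/ml for 1 day and then received a retrovirus by spin transduction, either the empty vector MSCV-IRES-GFP (MIG) or MIG carrying BATF, an AP-1 family transcription factor. After 1 further day of activation, 2 days of expansion in IL-2 at 10 ng/ml and a sort for CD8+ GFP+ cells, both groups spent 2 days in IL-2 at 1 ng/ml before poly(A) RNA was sequenced. BATF was thus expressed from a retroviral vector on top of the cells' own gene, in cells selected for the vector's GFP. The sources used here give no age for the mice and do not say whether the libraries came from separate mice.

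MYC is a transcription factor that binds the DNA sequence CACGTG as a dimer with MAX, while MXD proteins take the place of MYC in that dimer and repress. Its targets include many genes of ribosome production, and in T cells MYC is known for driving the growth that follows antigen recognition. Ribosomes are assembled in the nucleolus, where RNA polymerase I transcribes the ribosomal RNA precursor, small nucleolar RNPs (snoRNPs) modify it, and separate sets of factors shape the small and the large subunit. The comparison asks whether added BATF goes along with another level of these mRNAs.

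There were 2 libraries per group, which the submitters' design text names as biological replicates. Library totals lay between 19004726 and 24795707 fragments. The level of Batf, the overexpressed gene, in scaled counts relative to library size (CPM), was 36.1 and 26.5 in MIG and 1342 and 934 in BATF, higher in both libraries labelled BATF. All 10 markers of CD8 T cells were measured, with a summed level of 4736 to 5738 CPM per library. Their sum was lower in both BATF libraries (4736 and 5256 CPM) than in both MIG libraries (5738 and 5659 CPM), and none of the 10 passed the test. Of the 10, 9 had a BATF to MIG log2 fold change below 0. Both BATF libraries lay below both MIG libraries in 6 of them, where 19.4% of all tested genes did. At an unadjusted edgeR p under 0.05, 4 were lower, where 4.09% of all tested genes were. Markers of other cells stayed low in sum, at 14.2 to 20.1 CPM for 10 B cell genes, 8.49 to 14.4 CPM for 12 myeloid and dendritic cell genes and 1.15 to 2.00 CPM for 6 NK and gamma-delta T cell genes. The 6 markers of CD4 and regulatory T cells summed to 38.2 and 46.4 CPM in MIG and to 60.5 and 57.1 CPM in BATF, mostly from Zbtb7b and Ikzf4. Zbtb7b stood at 23.0 and 17.9 CPM in MIG and at 44.2 and 34.9 CPM in BATF (edgeR adjusted p = 0.0658), while the groups overlapped in Ikzf4. Of the 6, 2 had a log2 fold change above 0 and 4 below 0. Cd4 itself was at most 0.791 CPM. The 10 erythroid, platelet and stromal markers summed to 60.6 to 91.8 CPM, nearly all of it Pecam1. The part of these markers in the results below was not tested.

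None of the 37 genes passed the test between BATF and MIG. EdgeR's quasi-likelihood test called 0 members higher, against 0.884% of the 13008 genes tested, and 0 lower, against 0.208% (1.09% in both directions, adjusted p under 0.05). At an unadjusted p under 0.05 1 member was higher (Mxd4), where 6.69% of all tested genes were, and 1 was lower (Max), where 4.09% were, in all 10.8%. Likewise 0 members were called by DESeq2, which called 2.80% of all genes, by limma-voom with 0.946% and by limma on log2(FPKM + 1) with 0.349%. The smallest adjusted p of a member was 0.253. Library totals scale these levels, so that a change in RNA per cell common to all genes would not show, and in bulk RNA fewer cells of a type and less RNA per cell cannot be told apart.

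The 95% interval of the BATF to MIG ratio lay inside 1.5-fold either way for 36 of the 37 members, all but Mxd4, and this held for 58.9% of all tested genes. Those shares cover genes of unlike level, since 36 of the 37 members were more abundant per transcript length than the median tested gene. Over the members the intervals reached down to a ratio of 0.682 (Dkc1) and up to 1.59 (Mxd4). Log2 fold changes ran from −0.26 to 0.39, with a median of −0.04 beside −0.006 over all tested genes, and 28 of the 37 were below 0, as were 51.5% of all tested genes. The median without MIG replicate 2 was 0.001, with 18 members below 0. It was 0.01 without BATF replicate 1, again with 18 below 0, but −0.115 without MIG replicate 1 and −0.103 without BATF replicate 2, each with 33 below 0.

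**Figure D1:**
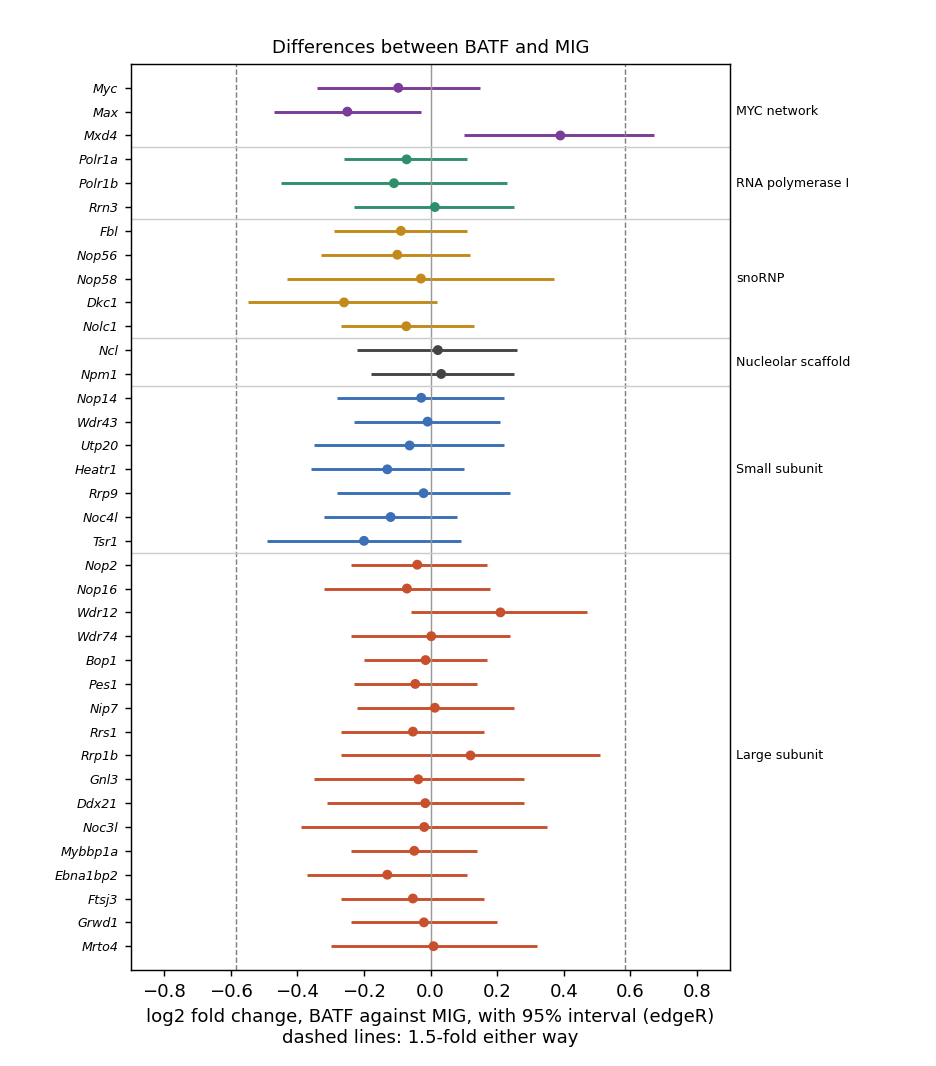
Log2 fold change of BATF against MIG for the 37 members (points) with the 95% interval of edgeR's quasi-likelihood fit (lines), ordered and coloured by role, n = 2 libraries per group. All intervals but that of Mxd4 end inside the dashed lines at 1.5-fold, and 35 of them include 0, with Max and Mxd4 as the exceptions.

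Of the MYC network, Myc had overlapping levels in both groups, Max had a lower and Mxd4 a higher mean in BATF. Myc was measured at 151.6 and 174.6 CPM in MIG and at 160.3 and 144.7 CPM in BATF. The groups overlapped, with the lower MIG library between the BATF libraries. The BATF to MIG ratio of Myc was 0.935 with a 95% interval from 0.790 to 1.11 (edgeR adjusted p = 0.885 at a log2 fold change of −0.10 ± 0.10 SE). Its sign depends on MIG replicate 2, without which the log2 fold change was 0.001.

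Max, the partner that MYC needs to bind DNA, stood at 77.3 and 79.4 CPM in MIG and at 62.0 and 69.5 CPM in BATF. Both BATF libraries lay below both MIG libraries. The ratio was 0.839 with an interval from 0.720 to 0.978, and the difference did not pass over all genes (edgeR adjusted p = 0.363 at a log2 fold change of −0.25 ± 0.09 SE). Mxd4, the MAX partner that opposes MYC, stood at 40.6 and 33.6 CPM in MIG and at 48.3 and 48.8 CPM in BATF. Here both BATF libraries lay above both MIG libraries, at a ratio of 1.31 with an interval from 1.08 to 1.59. It was the largest difference among the members and did not pass (edgeR adjusted p = 0.253 at a log2 fold change of 0.39 ± 0.12 SE). The Mxd4 promoter of RefSeq (build GRCm38.p6, chr5:34187884-34187960, minus strand) holds the MYC-MAX motif, shown because the gene belongs to the network that reads it, with the motif in capitals 219 bases before the start site.
Mxd4: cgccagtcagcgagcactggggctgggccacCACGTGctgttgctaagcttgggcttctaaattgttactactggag

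The 3 RNA polymerase I genes had ratios between 0.928 and 1.01. Polr1a, the largest subunit, stood at 102.7 and 102.3 CPM in MIG and at 97.9 and 97.1 CPM in BATF. These groups did not overlap, but the gap was small, at a ratio of 0.951 with an interval from 0.838 to 1.08 (edgeR adjusted p = 0.888). Polr1b, the second largest subunit, stood at 45.6 and 57.7 CPM in MIG and at 43.8 and 51.9 CPM in BATF. Its libraries differed more within a group than the group means of 51.7 ± 8.54 and 47.9 ± 5.74 CPM (SD, n = 2) did from each other. Rrn3, the factor that brings RNA polymerase I to the ribosomal RNA promoter, stood at 70.6 and 81.1 CPM in MIG and at 73.8 and 79.2 CPM in BATF. The BATF libraries of Rrn3 lay between the MIG libraries, and the ratio was 1.01 (interval 0.855 to 1.19). Its RefSeq promoter on the plus strand (GRCm38.p6) holds CACGTG at 215 bases (chr16:13780449-13780529) and at 48 bases (chr16:13780611-13780696) before the start site, and both are shown because no other member promoter held the motif more than once.
Rrn3 distal: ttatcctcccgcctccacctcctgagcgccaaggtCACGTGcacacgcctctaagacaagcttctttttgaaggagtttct
Rrn3 proximal: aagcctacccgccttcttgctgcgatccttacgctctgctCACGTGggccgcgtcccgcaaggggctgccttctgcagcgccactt

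The 5 snoRNP proteins all had a log2 fold change below 0, between −0.26 and −0.03, and none passed. Dkc1, the enzyme that turns uridine into pseudouridine in ribosomal RNA, was the member with the lowest ratio. It stood at 142.7 and 176.9 CPM in MIG and at 125.6 and 140.2 CPM in BATF. The highest BATF library was just below the lowest MIG library, at a ratio of 0.832 with an interval from 0.682 to 1.02 (edgeR adjusted p = 0.524 at a log2 fold change of −0.26 ± 0.12 SE). Fbl, the methyltransferase of the other snoRNP class, stood at 227.8 and 247.7 CPM in MIG and at 217.5 and 229.4 CPM in BATF. Its ratio was 0.940 with an interval from 0.817 to 1.08. Nop56, a scaffold of the Fbl particle, stood at 196.6 and 214.6 CPM in MIG and at 180.4 and 202.0 CPM in BATF. Nop58, the second scaffold, stood at 152.2 and 216.7 CPM in MIG and at 166.7 and 194.7 CPM in BATF. In both the groups overlapped, and in Nop58 the MIG libraries were farther apart (0.51 on the log2 scale) than in any other member. Nolc1, a snoRNP chaperone, had means of 180.0 ± 8.55 CPM in MIG and 171.2 ± 7.17 CPM in BATF (SD, n = 2).

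For the abundant nucleolar proteins Ncl and Npm1, the intervals of the ratio lay between 0.859 and 1.20. Ncl (nucleolin), which binds ribosomal RNA precursors, stood at 1162.5 and 1350.1 CPM in MIG and at 1216.8 and 1334.1 CPM in BATF. Npm1 (nucleophosmin), a chaperone of the nucleolus, stood at 1044.6 and 1189.4 CPM in MIG and at 1141.2 and 1143.4 CPM in BATF. In both genes the BATF libraries lay between the MIG libraries. Npm1 has near-identical processed copies in the genome, and the sources used here do not say how the authors' counting treated their fragments.

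All 7 factors of the small subunit had a log2 fold change below 0, from −0.20 to −0.01, and none passed. Tsr1, a late factor of small subunit maturation, stood at 70.6 and 83.4 CPM in MIG and at 61.4 and 72.1 CPM in BATF, at a ratio of 0.868 (interval 0.711 to 1.06). Heatr1, which acts in transcription and early processing of the precursor, stood at 141.1 and 164.6 CPM in MIG and at 137.1 and 142.2 CPM in BATF. In both genes 1 BATF library fell within the MIG range. Noc4l, a partner of Nop14, stood at 67.2 and 67.4 CPM in MIG and at 63.0 and 61.2 CPM in BATF. Its libraries were close within each group and did not overlap, at a ratio of 0.922 with an interval from 0.804 to 1.06 (edgeR adjusted p = 0.757). Utp20, a large scaffold of the processing complex, had the median difference of the set, with 79.0 and 96.4 CPM in MIG and 79.1 and 88.6 CPM in BATF. Group means were 58.4 ± 4.90 and 57.2 ± 4.45 CPM for Nop14, 128.7 ± 12 and 127.8 ± 4.26 CPM for Wdr43, and 53.5 ± 1.08 and 52.8 ± 6.30 CPM for Rrp9, in MIG and BATF in turn (SD, n = 2).

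Large subunit factors numbered 17, with log2 fold changes from −0.13 to 0.21, a median of −0.02 and 12 below 0. The subunits of the PeBoW complex, which processes the precursor of the large subunit RNA, had ratios on both sides of 1, none past the test. Wdr12 stood at 48.7 and 44.1 CPM in MIG and at 57.3 and 49.9 CPM in BATF. Both BATF libraries of Wdr12 were above both MIG libraries, at a ratio of 1.15 with an interval from 0.962 to 1.38 (edgeR adjusted p = 0.610). Its partners Bop1 and Pes1 had ratios of 0.990 and 0.969, with intervals from 0.871 to 1.12 and from 0.854 to 1.10. Pes1 stood at 118.0 and 115.5 CPM in MIG and at 113.2 and 113.0 CPM in BATF, again without overlap and with a gap of a few percent.

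Ebna1bp2, an early large subunit factor, stood at 95.7 and 106.4 CPM in MIG and at 86.4 and 98 CPM in BATF. It had the lowest ratio of the large subunit set, 0.913 with an interval from 0.773 to 1.08. Grwd1, which escorts ribosomal protein L3, stood at 43.4 and 44.5 CPM in MIG and at 43.1 and 43.6 CPM in BATF. Those 4 values span about 1 CPM. Nop2, a methyltransferase of the large subunit RNA, had means of 94.1 ± 0.201 CPM in MIG and 91.5 ± 6.36 CPM in BATF. Its promoter (GRCm38.p6, chr6:125131783-125131868, plus strand) is shown as the 1 promoter among those of the large subunit factors with CACGTG before the start site, 60 bases from it.
Nop2: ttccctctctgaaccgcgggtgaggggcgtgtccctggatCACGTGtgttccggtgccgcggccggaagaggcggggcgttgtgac

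Ddx21, an RNA helicase of the large subunit set, had means of 399.2 ± 56.3 CPM in MIG and 394.6 ± 44.6 CPM in BATF. Gnl3 (nucleostemin), a nucleolar GTPase of proliferating cells, had 64.4 ± 11.2 and 62.7 ± 4.54 CPM. Mybbp1a, a nucleolar protein that binds MYB, had 324.5 ± 13.8 and 313.6 ± 8.42 CPM, and Ftsj3, an RNA methyltransferase, had 113.3 ± 8.65 and 109.1 ± 3.51 CPM. Rrp1b had 79.9 ± 14.5 CPM in MIG and 86.5 ± 16.0 CPM in BATF, and its interval of 0.827 to 1.42 was the widest on the upper side among the large subunit factors. Noc3l, the least abundant member, had 32.9 ± 5.0 and 32.4 ± 4.84 CPM. The remaining factors, Nop16, Wdr74, Nip7, Rrs1 and Mrto4, had ratios between 0.952 (Nop16) and 1.01 (Nip7 and Mrto4).

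Counted over all roles, the 2 groups did not overlap in 7 of the 37 members. Max, Polr1a, Dkc1, Noc4l and Pes1 were lower in both BATF libraries, 5 of 37 where 19.4% of all tested genes were. Mxd4 and Wdr12 were higher in both, 2 of 37 where 19.2% of all tested genes were.

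**Figure D2:**
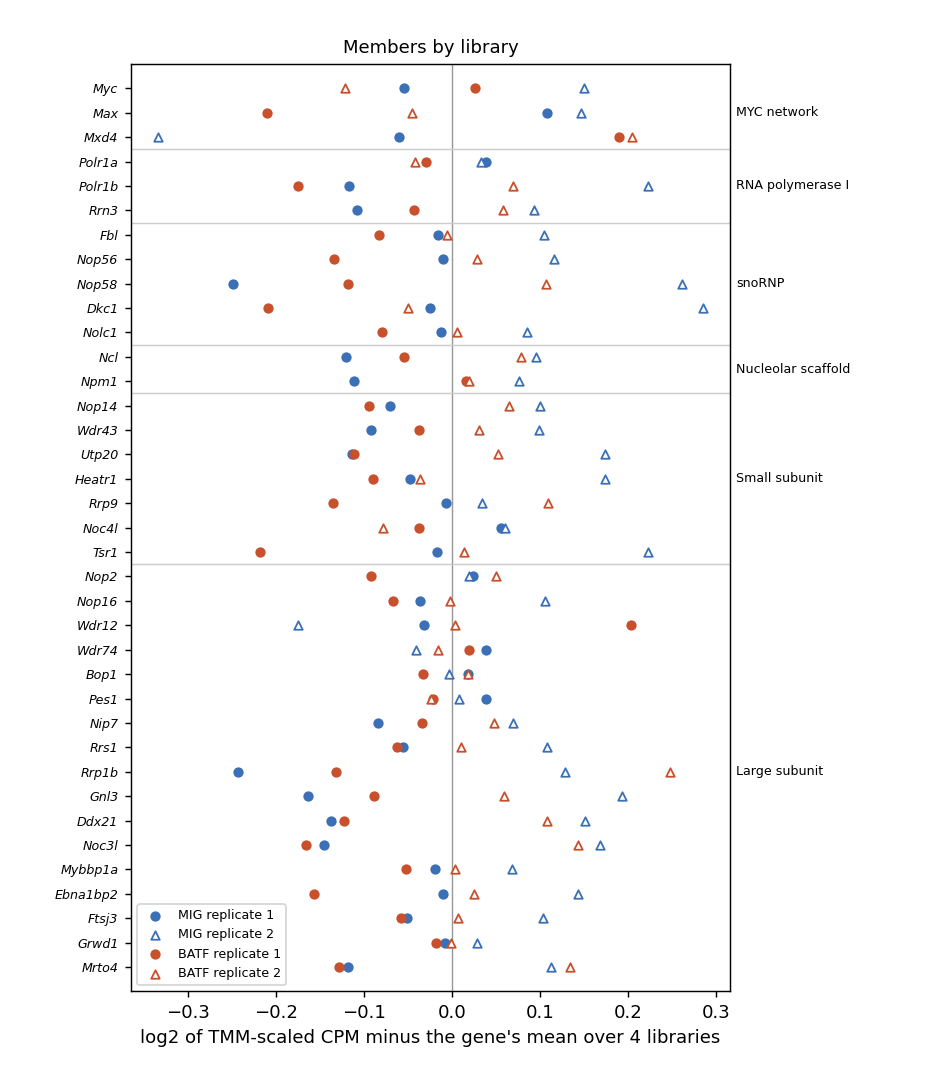
Log2 of TMM-scaled CPM in each of the 4 libraries minus the gene's own mean over the 4, for the 37 members by role (MIG blue, BATF orange, replicate 1 filled circles, replicate 2 open triangles). Open triangles lie to the right of the filled circles of their colour in most genes, while the 2 colours are mixed in all but 7 genes.

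Most members differed between the libraries of a group in the same direction in MIG and in BATF. Their level was higher in replicate 2 than in replicate 1 in 30 of 37 members in MIG and in 31 of 37 in BATF, where 49.5% and 49.6% of all tested genes were. The median difference was 0.156 on the log2 scale in MIG and 0.086 in BATF, beside −0.003 and −0.002 over all tested genes. In 28 of 37 members replicate 2 was the higher library in both groups, beside 30.4% of all tested genes. Sign aside, the median log2 difference of the members was 0.164 between the MIG libraries and 0.133 between the BATF libraries. Over all tested genes these medians were 0.187 and 0.131. The median BATF to MIG log2 fold change, sign aside, was 0.053 for the members and 0.123 over all tested genes. That fold change compares groups of 2 libraries, while the differences within a group compare single libraries. All 5 snoRNP proteins, Ncl and Npm1 had the higher level in replicate 2 of both groups, as did 6 of 7 small subunit and 12 of 17 large subunit factors. Rrp1b differed by 0.37 in MIG and 0.38 in BATF, Noc3l by 0.31 in both and Ddx21 by 0.29 and 0.23. Myc did not follow, with 0.20 in MIG and −0.15 in BATF, nor did Mxd4 (−0.27 and 0.016). Wdr12 was lower in replicate 2 of both groups, by −0.14 and −0.20. Replicate 2 held fewer fragments than replicate 1 in MIG (20354627 against 24795707) and more in BATF (21835962 against 19004726). The number is the library's place in the deposited table, and no label says that it marks a shared mouse, culture or day. Whether sequencing depth or another factor had a part in these differences between libraries was not tested.

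**Figure D3:**
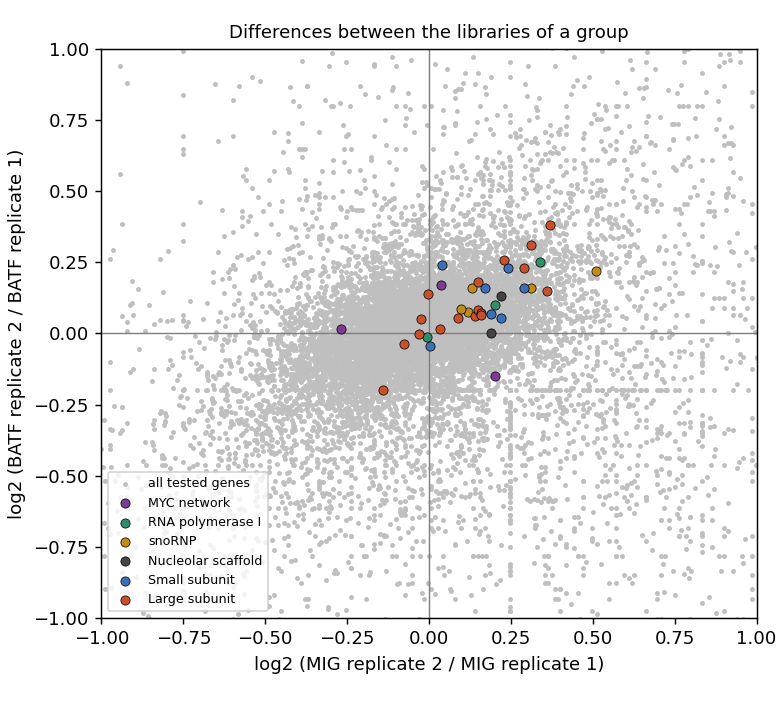
Log2 ratio of replicate 2 to replicate 1 in MIG (horizontal) and in BATF (vertical), for the 37 members coloured by role and for all tested genes in grey, of which 948 lie outside the axes or had no fragments in a library. Of the members, 28 lie above 0 on both axes.

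Compared per transcript length, in the deposited fragment counts scaled by transcript length and depth (FPKM), the members were abundant mRNAs. Of the 37, 36 had a mean FPKM above the median tested gene (9.07 FPKM) and 24 above the upper quartile (27.7 FPKM). Npm1 stood highest with 878.6 to 963.5 FPKM over the 4 libraries, a mean above that of 99.1% of tested genes. Fbl followed with 220.9 to 249.7 FPKM, Ncl with 144.5 to 163.5, Nop56 with 103.5 to 122.2 and Nop58 with 85.9 to 117.8. The ranges of Npm1, Fbl, Ncl and Nop56 did not touch each other, while those of Nop56 and Nop58 overlapped. Myc came eighth with a mean of 70.4 FPKM (65.0 to 76.7 FPKM), above 89.5% of tested genes, while Mxd4 and Max had means of 43.1 and 39.6 FPKM. Polr1a (16.6), Polr1b (12.9), Utp20 (9.75) and Noc3l (8.47) had the lowest mean FPKM.

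**Figure D4:**
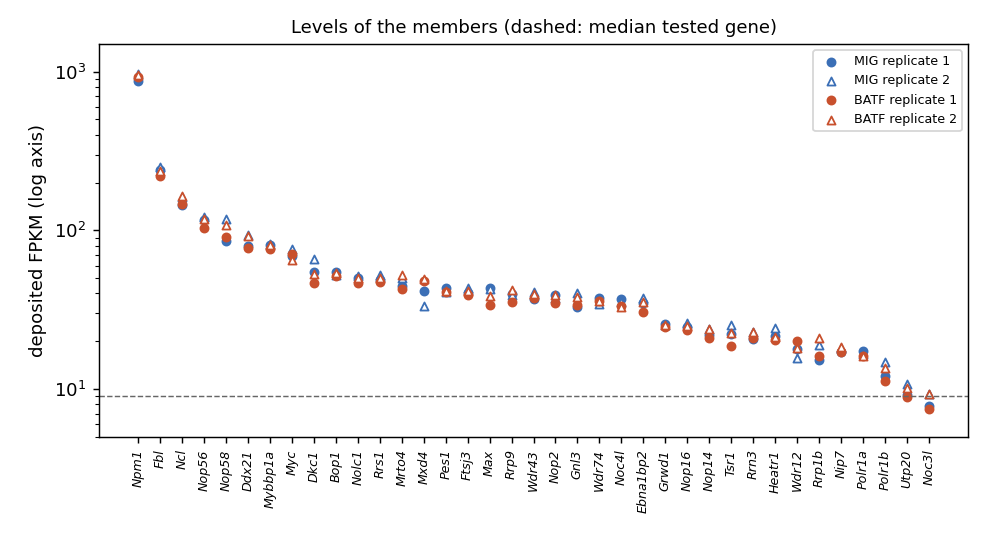
Deposited FPKM of the 37 members in each of the 4 libraries on a log axis, in order of mean level (MIG blue, BATF orange). Levels run from 930.4 FPKM on average for Npm1 to 8.47 for Noc3l, the 1 member under the median tested gene (dashed line, 9.07 FPKM).

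The other genes of these pathways, on 10 lists with 340 tested genes, gave the same count. None of them passed edgeR's test in either direction, where 1.09% of all tested genes did. Log2 fold changes were below 0 in 239 of the 340 (70.3%), beside 51.5% of all tested genes. At an unadjusted p under 0.05, 5 were higher, where 6.69% of all tested genes were, and 4 lower, where 4.09% were. In DESeq2, 2 passed as higher (Mycn and Mxi1), where 2.04% of all genes did, and in limma-voom 0 passed. Both BATF libraries lay below both MIG libraries in 86 of the 340 (19.4% of all tested genes) and above them in 23 (19.2%). The intervals of 329 of the 340 lay inside 1.5-fold either way, beside 58.9% of all tested genes. The median level was 46.4 FPKM for these lists and 9.07 FPKM for all tested genes. Median log2 fold changes were −0.048 over 21 RNA polymerase I and III genes, −0.029 over 11 snoRNP genes, −0.065 over 44 small subunit factors, −0.049 over 43 large subunit factors and −0.078 over 14 RNA exosome genes. They were −0.04 over 81 cytosolic ribosomal proteins, −0.031 over 77 mitochondrial ones and −0.012 over 30 further MYC targets. The 8 host genes of small nucleolar RNAs had the lowest median, −0.142, with 7 below 0. Among these, Snhg8 stood at 16.2 and 17.9 CPM in MIG and at 11.9 and 13.6 CPM in BATF (edgeR adjusted p = 0.320 at a log2 fold change of −0.42). Snhg12 had a log2 fold change of −0.35 (edgeR adjusted p = 0.706), which ran from −0.58 to −0.073 with 1 library left out. Gas5 had a log2 fold change of −0.24.

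In the wider MYC network, 11 tested genes with a median of −0.035, the largest differences were those of Mycn and Mxi1. Mycn, the paralog of Myc, had levels of 23.5 and 17.5 CPM in MIG and of 38.7 and 37.5 CPM in BATF. Both BATF libraries were well above both MIG libraries, and the difference came close to the threshold without passing it (edgeR adjusted p = 0.0599 at a log2 fold change of 0.89 ± 0.16 SE). Mycn passed in DESeq2 (adjusted p = 0.000181), with no filter on low counts (edgeR adjusted p = 0.00502) and in each of the 4 edgeR fits with 1 library left out (adjusted p from 0.00467 to 0.0377), which take the lone library to vary as the others do. It did not pass in limma-voom (0.0552) or on log2(FPKM + 1) (0.109). Mxi1, a MAX partner of the same family as Mxd4, stood at 37.5 and 27.9 CPM in MIG and at 64.8 and 46.2 CPM in BATF (edgeR adjusted p = 0.184 at a log2 fold change of 0.76 ± 0.20 SE). It passed in DESeq2 (adjusted p = 0.0107) and with no filter on low counts (edgeR adjusted p = 0.0291). Its edgeR adjusted p lay between 0.0147 and 0.368 with 1 library left out. Per transcript length the mean of Mycn was 12 FPKM and that of Mxi1 8.83 FPKM, against 70.4 FPKM for Myc. Mxd3, which had the third largest difference among those of these genes at 5 CPM or more on average, stood at 103.6 and 82.9 CPM in MIG and at 81.7 and 77.8 CPM in BATF (log2 fold change −0.23). Its edgeR adjusted p was 0.602 with all libraries. With 1 library left out, its log2 fold change ran from −0.39 (without MIG replicate 2) to −0.054 (without MIG replicate 1). With the replicate number as a block, Mycn, Mxi1 and Mxd3 passed (edgeR adjusted p = 1.19e-12, 1.57e-13 and 0.0465 in turn). That fit leaves 1 residual degree of freedom and called 11.6% of all genes.

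Other genes with the largest differences on their lists missed the threshold by more. Hspe1, a mitochondrial chaperonin and MYC target, stood at 144.6 and 162.5 CPM in MIG and at 124.0 and 126.6 CPM in BATF (edgeR adjusted p = 0.246 at a log2 fold change of −0.29). Prmt5, an arginine methyltransferase, had a log2 fold change of −0.23 (edgeR adjusted p = 0.351). Nvl, the ATPase partner of Wdr74, stood at 71.1 and 70.8 CPM in MIG and at 91.4 and 82.8 CPM in BATF (edgeR adjusted p = 0.241 at a log2 fold change of 0.30). Polr3k, a small subunit of RNA polymerase III, had a log2 fold change of 0.24 (edgeR adjusted p = 0.349), and Tbl3, a small subunit factor, one of −0.22 (edgeR adjusted p = 0.372).

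**Figure D5:**
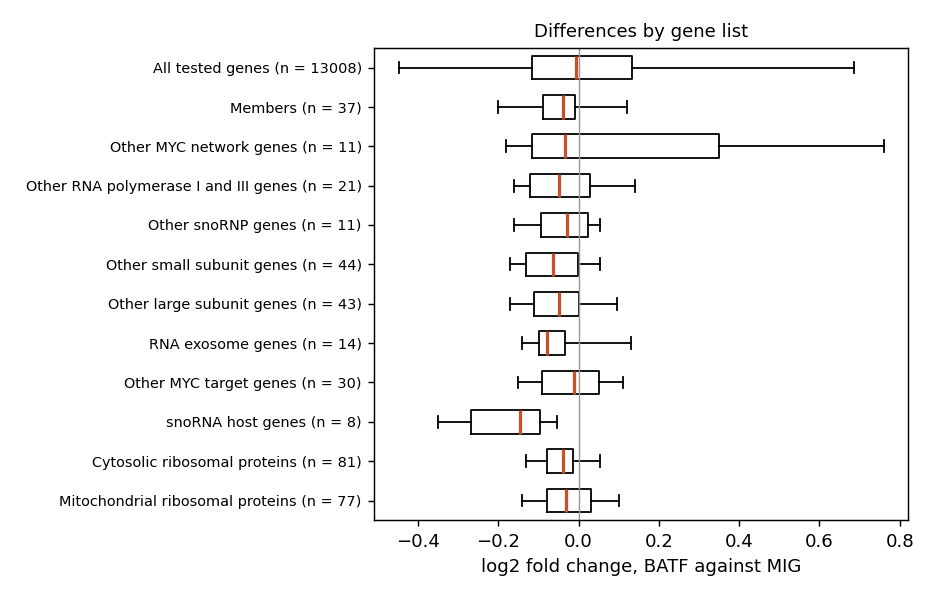
Log2 fold change of BATF against MIG over all tested genes, the 37 members and the 10 further lists (orange-red line median, box quartiles, whiskers from the 5th to the 95th percentile, n genes in brackets). The medians lie between −0.142 and −0.006, and the box of the other MYC network genes reaches farthest to the right.

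RefSeq promoters (GRCm38.p6, from 250 bases before to 50 after the start site) were matched by symbol for 32 of the 37 members, 35 promoters in all. Myc, Npm1, Fbl, Bop1 and Rrs1 had no entry. CACGTG, which reads the same on both strands, stood in 10 of the 35 (28.6%), in 9.57% of the 12586 promoters of tested genes and in 7.15% of the whole table. Those 10 belonged to Max, Mxd4, Rrn3, Utp20, Tsr1, Wdr43, Nop2, Pes1, Mybbp1a and Grwd1. In Max the motif began 3 bases before the start site, and in Utp20, Tsr1, Wdr43, Pes1, Mybbp1a and Grwd1 it began after it. TGANTCA, the AP-1 motif that BATF dimers with JUN proteins are known to bind, which also reads the same on both strands, stood in 0 of the 35 and in 5.09% of the promoters of tested genes. Members with CACGTG had a median log2 fold change of −0.043 (10 genes, −0.25 to 0.39) and those without it one of −0.033 (22 genes, −0.26 to 0.21). A match describes letters in these windows and is no measure of binding.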

How the data were processed

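Poly(A) RNA was measured in 4 libraries, 2 per group, grouped by sample title. The submitters' processing notes name TopHat2 2.1.1, Cufflinks 2.2.2, Cuffdiff and build mm9, with annotation and strandedness not given in the sources used here. Per the file headers, the deposited table lists estimated counts per gene and library (97.6% whole), a scaled fragment signal that was not tested here, and FPKM. It numbers the libraries of a group from 0, written here as replicates 1 and 2. Which labelled sample each is could not be told, so the numbers only name libraries.

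Estimated counts were rounded and fitted without a covariate in R 4.3.3 with edgeR 4.0.16 (filterByExpr, trimmed mean of M values (TMM) scaling, quasi-likelihood test), with Benjamini-Hochberg adjustment over 13008 genes and a threshold of 0.05. The biological coefficient of variation was 11.3%. CPM are TMM-scaled, SE and 95% intervals come from this fit, and SDs are over 2 libraries. The script was tested on simulated data, only with changes larger than any of the members'. With 2 libraries against 2, an exact two-sided permutation test of 1 value cannot go below p = 0.333, so none was run. The p-values reflect only the spread between libraries named as biological replicates, and how much of it is technical is not known.

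Alternatives were RLE and upper-quartile scaling, no filter on low counts, DESeq2 1.42.0, limma 3.58.1 (voom, and on log2(FPKM + 1) or log2(FPKM + 0.1) for genes of at least 1 FPKM), the replicate number as a block, and each library left out. Members and lists were chosen with earlier results of these data known. Per-library values are given for the MYC network and RNA polymerase I members, the 8 largest differences, the 5 highest FPKM and the member nearest each role's median, and of other lists up to 3 genes with the largest differences at 5 CPM or more were eligible. Pes1 was added after its values were seen.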

Additional observations from a re-analysis of the deposited data

How the results depend on the processing

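Members were called in 1 of the 12 alternatives, the replicate block (the table's library number as a term, which leaves 1 residual degree of freedom). It called 1 member higher (7.04% of all genes), Mxd4 (log2 fold change 0.39, edgeR adjusted p = 0.000847), and 2 lower (4.52% of all genes), Max (−0.25, 0.0153) and Dkc1 (−0.26, 0.0108). Over all genes it called 1504 where the fit without it called 142. Same-numbered libraries deviated together, with a correlation of 0.348 over tested genes that is the same for both pairs by construction, and the numbers are not stated to pair samples. The members' median of −0.04 ranged from −0.115 to 0.01 with 1 library left out, and was 0.001 without MIG replicate 2. Over all genes edgeR called 248 to 589 with 1 library left out, 349 with no filter, DESeq2 364 and limma on log2(FPKM + 1) 36 and on log2(FPKM + 0.1) 49, and the cause was not tested. On the further lists, calls higher were 2 with no filter on low counts (1.17% of all genes), 2 in DESeq2 (2.04%) and 5 with the replicate block (7.04%). Calls lower on these lists were 4 with the replicate block (4.52% of all genes). Signs turned in 21 members. With 1 library left out, log2 fold changes ran from −0.19 to 0.001 (Myc), −0.26 to 0.063 (Polr1b), −0.08 to 0.11 (Rrn3), −0.26 to 0.24 (Nop58), −0.078 to 0.13 (Ncl), −0.054 to 0.12 (Npm1), −0.11 to 0.052 (Nop14), −0.098 to 0.082 (Wdr43), −0.2 to 0.08 (Utp20), −0.15 to 0.097 (Rrp9), −0.11 to 0.03 (Nop2), −0.043 to 0.045 (Wdr74), −0.042 to 0.012 (Bop1), −0.058 to 0.083 (Nip7), −0.13 to 0.024 (Rrs1), −0.086 to 0.31 (Rrp1b), −0.2 to 0.14 (Gnl3), −0.15 to 0.13 (Ddx21), −0.18 to 0.14 (Noc3l), −0.13 to 0.019 (Ftsj3) and −0.13 to 0.14 (Mrto4). Wdr43 also turned with upper-quartile scaling (0.003) and Wdr74 on log2(FPKM + 1) (−0.002) and log2(FPKM + 0.1) (−0.002). The other 16 members kept their sign in all 12 alternatives. The median differences between replicates of a group, under 3 scalings chosen after seeing the data, ranged from 0.102 to 0.181 in MIG and from 0.066 to 0.109 in BATF. With 2 libraries per group, members whose 95% interval includes 0 could not be told from no difference, which holds for all but Max and Mxd4. The intervals of Max and Mxd4 are not adjusted over genes, and neither gene passed the test in the main fit. For genes of the further lists, Rps27 turned from −0.33 to 1.17 in limma-voom, 1.81 and 1.91 on log2(FPKM + 1) and log2(FPKM + 0.1) and 0.52 with the replicate block, and ran from −1.29 to 3.97 with 1 library left out. Znhit6 ran from −0.4 to 0.12.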

Other observations

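Of 81 tested cytosolic ribosomal protein genes, 29.6% were higher in replicate 2 than in replicate 1 of MIG and 32.1% in BATF, with medians of −0.101 and −0.026 on the log2 scale. Small subunit factors outside the 37 members were higher in replicate 2 in 77.3% of cases in MIG and 84.1% in BATF, further MYC targets in 73.3% and 80.0%, and snoRNP genes in 90.9% and 81.8%. The shares in MIG were nearer to the 49.5% of all tested genes for other large subunit factors (58.1%, and 83.7% in BATF), RNA exosome genes (57.1% and 71.4%), RNA polymerase I and III genes (52.4% and 71.4%) and mitochondrial ribosomal proteins (50.6% and 67.5%). They were 62.5% in MIG and 37.5% in BATF for the 8 snoRNA host genes, and 27.3% and 54.5% for other MYC network genes. None of these differences between libraries was tested.

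Rps27, a ribosomal protein of the small subunit with near-identical copies in the genome, stood at 87.1 and 2.28 CPM in MIG and at 30.3 and 41.3 CPM in BATF. The MIG libraries lay on both sides of the BATF libraries, and no direction can be given.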
